A study of Homo sapiens with 12 samples.

Results

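The p53 pathway was followed here through a list of 29 genes: those that hold p53 in check and those that p53 switches on. They were measured in SH-SY5Y cells, a human neuroblastoma line subcloned from SK-N-SH, after siRNA against SETD1A. A gene entered where a probe bearing its symbol had a detection p under 0.01 (an intensity above nearly all negative control beads, called above background here) on at least 4 of the 12 arrays, and its brightest probe by mean log2 intensity was used. Of the 29 genes, 27 had a named probe and 21 passed, out of 9833 genes that passed on the whole array. EDA2R, FAS, GDF15, MDM2, PLK3 and SESN2 had probes that were above background on 0 arrays, and BTG2 and FDXR had no named probe here. Every gene that passed did so on at least 10 of the 12 arrays, so none entered through a single group: SPATA18 and RRM2B on 10, MDM4 and POLH on 11 and the other 17 on 12.

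The study asked what changes in these cells when SETD1A, a methyltransferase of histone H3 lysine 4, is lowered. Lipofection delivered s18789 or s18790, which are 2 separate siRNAs for the SETD1A transcript, or a control siRNA, and harvest followed 96 hours later in every group with no further agent. Total RNA of 4 samples per group was read on bead arrays, 1 array per sample. The controls were transfected too, and no untransfected cells were used here. The labels leave unstated whether a group comprised independent cultures, so the p-values reflect only sample-to-sample spread, which may be technical.

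p53 is a transcription factor that is kept scarce in unstressed cells by the ubiquitin ligase MDM2 and its partner MDM4. DNA damage, ribosomal stress and other insults free it, and it then activates genes that halt the cell cycle, start apoptosis, repair DNA and adjust metabolism, among them MDM2 itself, which closes the loop. The pathway was followed here through its regulators and targets.

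Promoter windows from RefSeq (GRCh38.p14), reaching from 250 bases before to 50 after a start, were available for 24 of the 29 genes, as 36 windows. The 4 genes whose brightest probe passed the test in any comparison are shown first, so that their start regions can be compared. Capitals mark the GC box, the element bound by SP1 factors, as GGGCGG or CCGCCC on the printed strand, which covers both strands, and the windows are XPC at chr3:14178552-14178851 (minus strand), SPATA18 at chr4:52051054-52051353 (plus), CDKN1A at chr6:36678464-36678763 (plus) and PMAIP1 at chr18:59899746-59900045 (plus).
XPC: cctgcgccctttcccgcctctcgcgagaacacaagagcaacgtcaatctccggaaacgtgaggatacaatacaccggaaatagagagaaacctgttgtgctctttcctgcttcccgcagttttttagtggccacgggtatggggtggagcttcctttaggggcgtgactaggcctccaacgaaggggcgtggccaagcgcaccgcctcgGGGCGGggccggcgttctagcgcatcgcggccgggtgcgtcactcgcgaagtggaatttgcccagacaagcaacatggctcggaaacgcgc
SPATA18: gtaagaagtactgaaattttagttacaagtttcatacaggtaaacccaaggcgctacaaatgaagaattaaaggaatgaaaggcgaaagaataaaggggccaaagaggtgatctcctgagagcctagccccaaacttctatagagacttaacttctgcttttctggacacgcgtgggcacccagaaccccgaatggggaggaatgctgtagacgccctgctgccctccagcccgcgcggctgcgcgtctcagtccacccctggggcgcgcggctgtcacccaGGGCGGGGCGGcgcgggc
CDKN1A: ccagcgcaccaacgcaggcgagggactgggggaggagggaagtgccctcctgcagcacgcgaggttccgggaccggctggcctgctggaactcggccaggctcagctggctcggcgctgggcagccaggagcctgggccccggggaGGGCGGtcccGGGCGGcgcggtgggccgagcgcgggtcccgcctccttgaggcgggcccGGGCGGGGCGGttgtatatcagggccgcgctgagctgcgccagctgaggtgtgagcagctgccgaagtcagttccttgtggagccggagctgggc
PMAIP1: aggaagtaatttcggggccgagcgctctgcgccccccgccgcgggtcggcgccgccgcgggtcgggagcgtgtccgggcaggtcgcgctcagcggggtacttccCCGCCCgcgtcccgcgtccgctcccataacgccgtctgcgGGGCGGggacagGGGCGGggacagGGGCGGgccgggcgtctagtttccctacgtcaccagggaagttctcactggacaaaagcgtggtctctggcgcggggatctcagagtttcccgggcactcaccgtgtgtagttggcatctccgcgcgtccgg

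XPC had 1 GC box in its window, SPATA18 had 2 that overlap, and CDKN1A and PMAIP1 had 4 each, with overlapping matches counted separately. Over the 29 genes, 30 of the 36 windows (83.3%) held a GC box, against 45.0% of all 35116 windows. The median number of CG dinucleotides was 23 in these windows and 14 in all. No background matched for CG content or gene type was used, and the 36 windows belong to 24 genes. The p53 decamer, the 10-base element that p53 binds in pairs, was in 5 of the 36 windows (13.9%; AEN, DDB2, FAS, FDXR and SESN1) and in 6.63% of all windows. The windows of XPC, SPATA18, CDKN1A and PMAIP1 held none, which says only that these letters are not in these 300 bases. DDB2 is shown because the window of one of its starts, chr11:47214724-47215023 (plus strand), held 2 decamers 1 base apart, in capitals.
DDB2: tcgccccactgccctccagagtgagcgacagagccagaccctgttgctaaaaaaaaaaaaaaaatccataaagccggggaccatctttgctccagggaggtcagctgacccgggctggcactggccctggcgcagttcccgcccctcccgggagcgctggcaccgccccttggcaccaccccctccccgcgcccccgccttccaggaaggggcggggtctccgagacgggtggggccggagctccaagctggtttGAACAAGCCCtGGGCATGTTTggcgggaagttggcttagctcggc

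The RNA targeted by the siRNAs was checked first. SETD1A had log2 intensities of 7.52, 7.64, 7.50 and 8.03 with control siRNA, 7.34, 7.22, 7.10 and 7.30 with s18789, and 6.98, 7.45, 6.90 and 6.83 with s18790. All 8 knockdown arrays lay below all 4 controls. The difference was -0.43 for s18789 (limma, Benjamini-Hochberg adjusted p = 0.616 over all 15922 probes; exact two-sided permutation p = 0.0286, the smallest that 4 against 4 allows) and -0.63 for s18790 (adjusted p = 0.0276; exact permutation p = 0.0286), which leaves 74.1% and 64.6% of the control level. Removing replicate 1 or 2 of the controls (adjusted p = 0.0507 and 0.0683), or replicate 1 or 4 of s18790 (adjusted p = 0.073 and 0.066), ended the call with s18790. Between the siRNAs SETD1A differed by -0.20 (adjusted p = 0.468).

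Median intensity per array was 63.1 to 70.2 and 29.1% to 33.6% of probes were above background. The arrays of s18790 replicate 2 and control replicate 4 stood apart on the first principal component, at 83.7 and 26.8. Of the 21 genes, s18790 replicate 2 was the lowest array of its group for 9 and the highest for 11, so its values are set beside the results below. Of 8 markers of adrenergic neuroblastoma cells with a probe, 7 were above background on every array and TH on none, and the log2 of their summed level lay at 14.4 to 14.6 in all groups. Of 6 mesenchymal markers, 3 were above background on every array, YAP1 on 9 arrays and CD44 and PRRX1 on none. The log2 of the mesenchymal sum was 9.52 to 9.64 in control, 9.25 to 9.39 with s18789 and 8.92 to 9.25 with s18790. That sum moved with the groups, its part in the results below was not tested, and in bulk RNA fewer cells of a type and less RNA per cell cannot be told apart. Of 3 blood markers PTPRC and CD3E were above background on 0 arrays, and CD14, by its most often detected probe, on 10. The log2 sum of the 3 was 6.55 to 6.76, 6.65 to 6.72 and 6.69 to 7.05 in the same order of groups. Of 2 epithelial markers CDH1 was above background on 0 arrays, and EPCAM, by its most often detected probe, on 9. The log2 sum of the 2 was 6.27 to 6.63, 6.07 to 6.40 and 5.97 to 6.32.

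The 21 genes lay on both sides of the control level with either siRNA, and few passed the test. With s18789, 0 of the 21 genes passed an adjusted p under 0.05, against 0.102% of all 9833 genes (0.0712% higher and 0.0305% lower). With s18790, XPC and SPATA18 passed, both lower, which is 2 of 21 (9.52%) against 9.85% of all genes (5.06% higher and 4.79% lower), near the background. Comparing s18790 with s18789 directly, CDKN1A was higher and PMAIP1 lower, again 2 of 21 (9.52%) against 5.07% of all genes (3.01% higher and 2.06% lower). The 2 comparisons with control use the same 4 control arrays.

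The median log2 difference of the 21 genes was -0.04 with s18789 (all genes 0.01), -0.07 with s18790 (all genes 0.02) and 0.02 between the siRNAs (all genes 0.02). Single genes ranged from -0.41 to 0.43, from -0.70 to 0.48 and from -0.97 to 0.60 in the same order. A positive difference was found for 10 of 21 genes with s18789 (52.8% of all genes), 9 with s18790 (52.2%) and 11 between the siRNAs (52.7%). At an unadjusted p under 0.05 there were 4 genes with s18789, against 6.35% of all genes, 9 with s18790, against 28.2%, and 8 between the siRNAs, against 24.6%. As shares of the 21 these are 19.0%, 42.9% and 38.1%. With s18789 the 4 were TIGAR on the higher side (2.4% of all genes) and TNFRSF10B, TP53I3 and XPC on the lower (3.95%). With s18790 BBC3, CDKN1A, PHLDA3 and TIGAR had positive differences (16.1% of all genes) and GADD45A, PMAIP1, SPATA18, TP53INP1 and XPC negative ones (12.1%). Between the siRNAs BBC3, CDKN1A, PHLDA3, TNFRSF10B and TP53I3 had positive differences (14.4%) and GADD45A, PMAIP1 and XPC negative ones (10.2%).

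**Figure D1:**
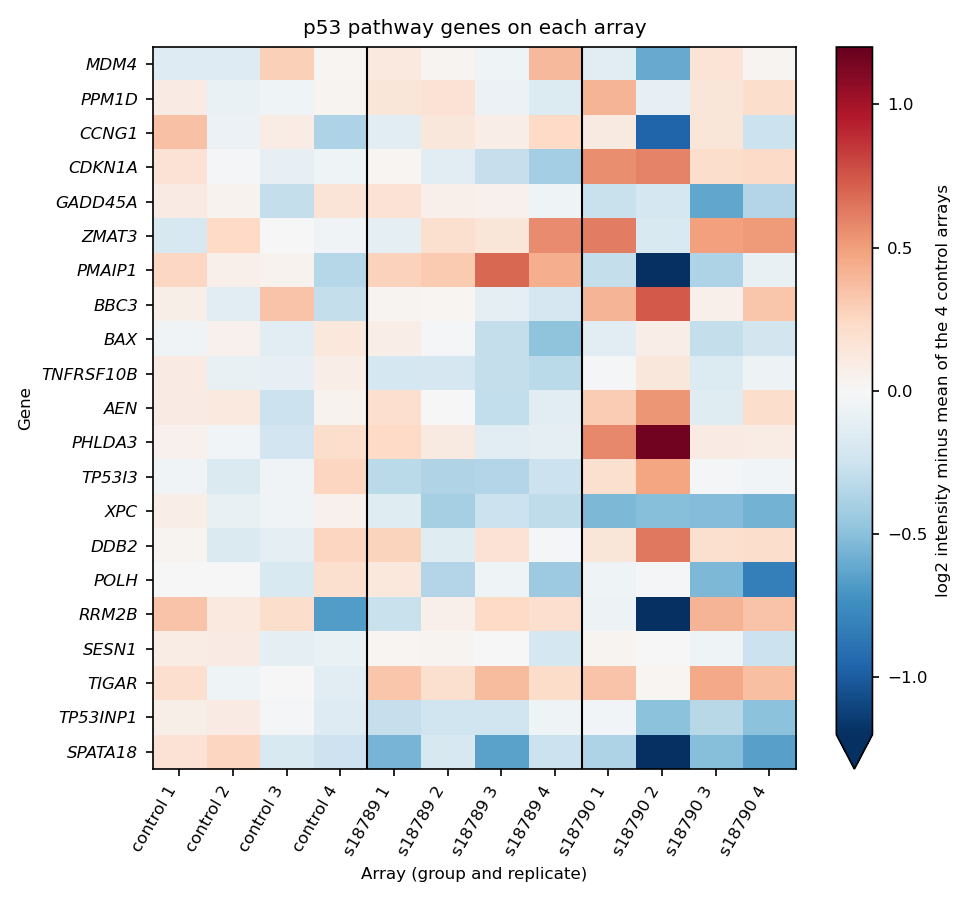
Each row is a p53 pathway gene and each column an array; colour gives the log2 intensity minus the mean of the 4 control arrays, red higher and blue lower. The XPC row is blue on all 8 knockdown arrays, CDKN1A is red on the 4 arrays of s18790, and s18790 replicate 2 holds the darkest cell of several rows, such as RRM2B, PMAIP1 and PHLDA3.

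The feedback arm was represented by MDM2, MDM4, PPM1D and CCNG1. MDM2, the ligase that marks p53 for destruction and is itself a p53 target, could not be followed. Its 2 probes had intensities of 62.1 to 81.8 and 51.4 to 64.0 over the 12 arrays, and their lowest detection p-values were 0.026 and 0.184. No array of any group had MDM2 above background, so no fold is given. MDM4, the relative of MDM2 that masks the activation domain of p53, differed by 0.12 with s18789 and -0.14 with s18790 (adjusted p = 1.0 and 0.654). Its groups overlapped, from 5.42 on s18790 replicate 2 to 6.41 on s18789 replicate 4.

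PPM1D, a phosphatase that switches the damage response off again, differed by 0.02 and 0.17, with 95% intervals of -0.25 to 0.29 and -0.10 to 0.43. CCNG1, cyclin G1, which recruits a phosphatase to MDM2, differed by 0.08 and -0.24. On s18790 replicate 2 CCNG1 was at 9.22, while the other 11 arrays lay between 9.81 and 10.53, and without that array the difference with s18790 was 0.0011. None of these genes passed the test in any of the 3 comparisons.

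Among the genes that stop the cell cycle, CDKN1A encodes p21, the inhibitor of cyclin-dependent kinases through which p53 imposes arrest. Its log2 intensities were 11.82, 11.62, 11.55 and 11.59 with control, 11.67, 11.50, 11.37 and 11.24 with s18789, and 12.20, 12.24, 11.85 and 11.88 with s18790. All 4 arrays of s18790 lay above all 8 others, and the s18789 arrays overlapped the controls on the low side.

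CDKN1A was 1.51-fold higher with s18790 than with s18789 (log2 difference 0.60 ± 0.13 SE, 95% interval 0.32 to 0.88, adjusted p = 0.0245). The difference was 0.40 ± 0.13 from control with s18790 (adjusted p = 0.0785) and -0.20 ± 0.13 with s18789 (adjusted p = 1.0), neither past the threshold. The call between the siRNAs was lost under median scaling (0.48, adjusted p = 0.149), in a fit of those groups alone (0.60, adjusted p = 0.0841), and without s18789 replicate 2, 3 or 4 or s18790 replicate 1 (adjusted p = 0.0597, 0.0867, 0.0857 and 0.0798).

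GADD45A, a stress sensor that blocks entry into mitosis, lay at 8.02 to 8.46 with control, 8.25 to 8.48 with s18789 and 7.68 to 8.10 with s18790. The s18790 arrays were all below those of s18789 and overlapped 1 control. The difference with s18790 was -0.36 ± 0.13 from control (adjusted p = 0.0936) and -0.42 ± 0.13 from s18789 (adjusted p = 0.0758). The difference from s18789 passed without s18790 replicate 2 (adjusted p = 0.0453). A second GADD45A probe gave -0.39 in both comparisons (adjusted p = 0.191 and 0.227).

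ZMAT3 encodes an RNA-binding zinc finger protein that is a long-known p53 target and regulates splicing. Its 3 probes did not move together. On the brightest, ILMN_2361104, values were 11.47, 11.90, 11.66 and 11.61 with control, 11.55, 11.86, 11.80 and 12.23 with s18789, and 12.27, 11.48, 12.15 and 12.17 with s18790, so the s18790 arrays were high except replicate 2. This probe differed by 0.36 ± 0.19 with s18790 (adjusted p = 0.259). Without s18790 replicate 2 the difference was 0.54 and passed (adjusted p = 0.0341).

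The other probes of ZMAT3 were lower with s18790. ILMN_1654262 had a difference of -0.99 ± 0.26 (adjusted p = 0.0372) and ILMN_1865764 one of -1.27 ± 0.29 (adjusted p = 0.0203). The first call was lost under 11 of 22 alternatives, among them the removal of control replicate 1, 2 or 3, of any s18789 array or of s18790 replicate 1 (adjusted p up to 0.122). The second was lost under 5, among them the removal of control replicate 1, 2 or 3 (adjusted p up to 0.0888). On both probes, the 4 arrays of s18790 lay below all 8 others, with replicate 2 lowest. With s18789 these probes differed by -0.25 and -0.24 and did not pass (adjusted p = 1.0 for each). Without both s18790 replicate 2 and control replicate 4, ILMN_1865764 differed by -0.42 with s18789 and passed (adjusted p = 0.0327).

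The log2 gap between probes of the same array was compared next. The gap of the brightest probe to ILMN_1654262 was 1.59 to 2.35 on the control arrays, 2.2 to 2.65 with s18789 and 3.04 to 3.71 with s18790. The gap to ILMN_1865764 was 1.44 to 2.35, 2.05 to 2.67 and 3.24 to 4.06 in the same order. The s18790 arrays did not overlap the others in either gap. The mean gap was wider than in control by 1.35 and 1.63 with s18790 and by 0.45 and 0.44 with s18789. This measure was chosen after the values were seen, so it is a description with no test. Which transcripts the probes match was not analysed here.

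**Figure D2:**
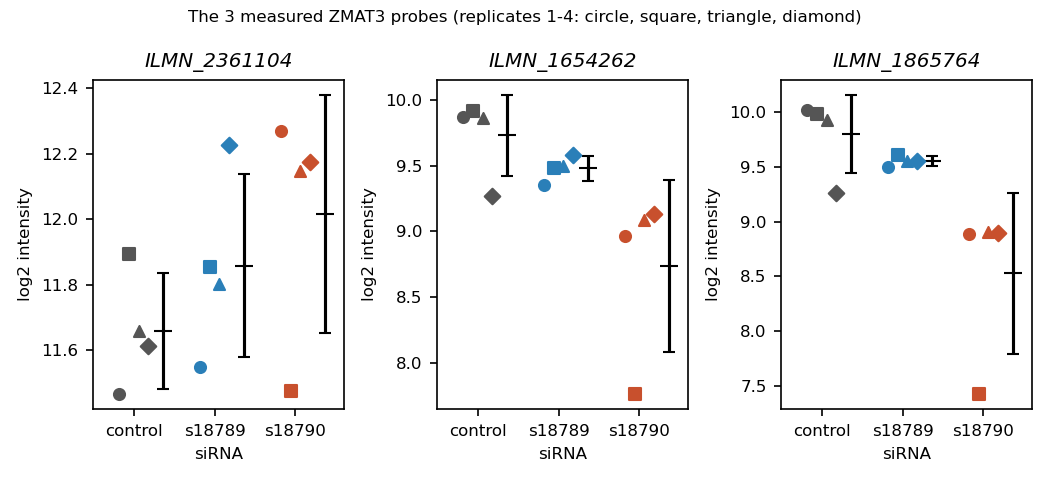
Log2 intensity of the 3 ZMAT3 probes on each array, by siRNA; symbols give the replicate and bars the mean ± SD of 4 arrays, on separate axes that do not start at 0. With s18790 the brightest probe is high on 3 of 4 arrays while both other probes are lowest on all 4, with replicate 2 (square) at 7.76 and 7.42.

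The genes that drive cell death did not share a direction. PMAIP1, which encodes NOXA, a BH3-only protein that disables survival factors of the BCL2 family, lay at 7.65, 7.46, 7.45 and 7.06 with control, 7.68, 7.72, 8.09 and 7.84 with s18789, and 7.12, 5.98, 7.03 and 7.32 with s18790. The 4 arrays of s18789 were the highest of the 12, and all 4 of s18790 were below them.

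PMAIP1 was lower with s18790 than with s18789 by a log2 difference of -0.97 ± 0.25 (95% interval -1.50 to -0.44, adjusted p = 0.0454), that is, at 51.0% of its level there. From control it differed by 0.43 ± 0.25 with s18789 (adjusted p = 0.959) and -0.54 ± 0.25 with s18790 (adjusted p = 0.190). Without s18790 replicate 2, the lowest array, the difference between siRNAs was -0.68 (adjusted p = 0.0190). The call was lost under 11 of 22 alternatives, among them the removal of any of control replicates 1 to 3, of any s18789 array or of s18790 replicate 1, with adjusted p up to 0.141.

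A second PMAIP1 probe, ILMN_1689525, was above background on 1 of 4 control arrays, 4 of 4 with s18789 and 0 of 4 with s18790. This probe met the filter only through the s18789 group, where it was high, so its adjusted p is no separate support. It was at least 1.04-fold higher with s18789 than with s18790, set against the lowest level among probes above background (adjusted p = 0.0450). That call was lost under 15 of 21 alternatives, among them the removal of control replicate 2 or 3, of any s18789 array or of s18790 replicate 1, 2 or 4 (adjusted p up to 0.126).

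BBC3, which encodes PUMA, a second BH3-only protein, lay at 5.95 to 6.58 with control, 6.04 to 6.27 with s18789 and 6.30 to 6.97 with s18790. The s18790 arrays lay above those of s18789 and overlapped the controls. The difference with s18790 was 0.38 ± 0.16 from control (adjusted p = 0.157) and 0.45 ± 0.16 from s18789 (adjusted p = 0.130). BAX, which forms the pore in the outer mitochondrial membrane, differed by -0.18 and -0.14 with s18789 and s18790, with 95% intervals of -0.47 to 0.11 and -0.43 to 0.15.

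TNFRSF10B, the death receptor DR5, lay at 9.90 to 10.10 with control, 9.68 to 9.80 with s18789 and 9.83 to 10.13 with s18790. The s18789 arrays were below all others. The difference was -0.25 ± 0.10 with s18789 (adjusted p = 0.683) and -0.03 ± 0.10 with s18790. A second TNFRSF10B probe differed by -0.23 and -0.01, and its groups overlapped. TP53I3, an oxidoreductase linked to p53-dependent death, was likewise lowest with s18789, at 8.81 to 8.91 against 9.0 to 9.43 in control and 9.14 to 9.64 with s18790. TP53I3 differed by -0.32 ± 0.13 with s18789 (adjusted p = 0.720), 0.16 ± 0.13 with s18790 and 0.48 ± 0.13 between the siRNAs (adjusted p = 0.0567). That last difference passed under 8 of 22 alternatives, at adjusted p down to 0.0215. These included the removal of control replicate 4 or of s18790 replicate 3. They also included no background correction, a larger offset, the deposited log2 values and detection on all 12 arrays. A second TP53I3 probe, above background on all 12 arrays, did not show this, and its groups overlapped. It differed by -0.04 with s18789 and by 0.16 between the siRNAs (adjusted p = 0.478 for the latter).

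AEN, an apoptosis-enhancing nuclease, differed by -0.05 with s18789 and 0.22 with s18790 (adjusted p = 1.0 and 0.401). PHLDA3, which restrains AKT at the membrane, differed by 0.02 and 0.48 ± 0.21 (adjusted p = 1.0 and 0.177). PHLDA3 was at 7.85 on s18790 replicate 2 and at 7.27, 6.79 and 6.77 on replicates 1, 3 and 4, against 6.46 to 6.90 in control. Without replicate 2 its difference was 0.25.

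Among the DNA repair genes, XPC was lower with s18790, the one call among the 21 genes that held under all 22 alternatives run. XPC encodes the protein that finds distorted DNA at the start of global genome nucleotide excision repair. Its values were 9.0, 8.84, 8.88 and 8.97 with control, 8.78, 8.53, 8.66 and 8.62 with s18789, and 8.38, 8.41, 8.40 and 8.35 with s18790. The groups did not overlap in any pair: control was highest, s18789 intermediate and s18790 lowest.

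XPC fell by 0.53 ± 0.09 on the log2 scale with s18790, to 69.1% of control (95% interval -0.73 to -0.34, adjusted p = 0.00387). Over those alternatives the adjusted p lay between 0.00108 and 0.0294 and the difference between -0.64 and -0.47. With s18789 the difference was -0.28 ± 0.09 (95% interval -0.47 to -0.08), which did not pass (adjusted p = 0.503), and between the siRNAs it was -0.26 ± 0.09 (adjusted p = 0.123).

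DDB2, whose protein recognises ultraviolet lesions and whose promoter letters are printed above, lay at 6.41 to 6.84 with control, 6.44 to 6.85 with s18789 and 6.73 to 7.22 with s18790. It differed by 0.07 and 0.29 ± 0.14 (adjusted p = 1.0 and 0.226), and by 0.18 with s18790 when replicate 2 was left out. POLH, the polymerase that copies past ultraviolet lesions, differed by -0.18 and -0.36 ± 0.19 (adjusted p = 1.0 and 0.256). RRM2B, the p53-inducible subunit of ribonucleotide reductase, differed by 0.06 and -0.32 ± 0.43. RRM2B was not above background on s18790 replicate 2, at 4.54, while replicates 1, 3 and 4 lay between 6.43 and 6.90. Without that array its difference was 0.23, of opposite sign.

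**Figure D3:**
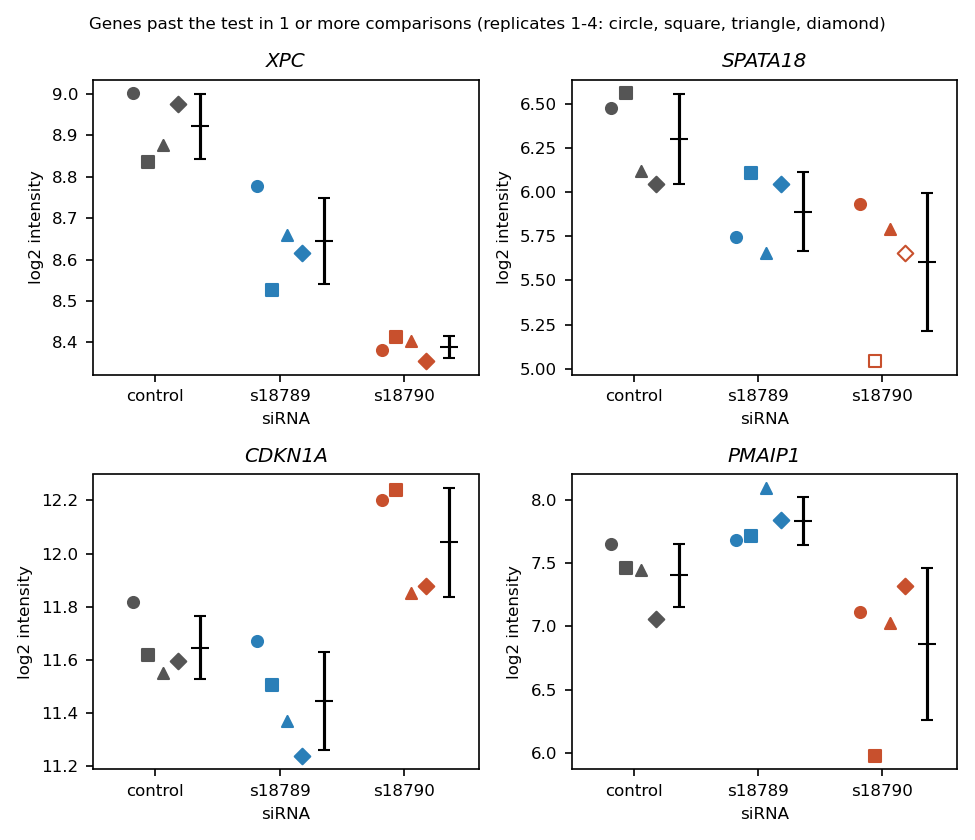
Log2 intensity on each array of the 4 genes whose brightest probe passed the test in any comparison, by siRNA. Symbols give the replicate, open symbols a probe not above background, and bars the mean ± SD of 4 arrays. The axes do not start at 0. The 3 groups of XPC do not overlap, SPATA18 and PMAIP1 have their lowest value on s18790 replicate 2 (5.04 and 5.98), and CDKN1A is highest on the 4 arrays of s18790.

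The remaining targets act in stress control, metabolism and mitochondria. SPATA18, also called Mieap, takes part in the clearance of damaged mitochondria. Its values were 6.48, 6.56, 6.12 and 6.05 with control, 5.75, 6.11, 5.66 and 6.05 with s18789, and 5.93, 5.04, 5.79 and 5.65 with s18790, where it was above background on 2 of 4 arrays. The s18790 arrays were all below the controls, and s18789 overlapped both.

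SPATA18 fell with s18790, by a log2 difference of -0.70 ± 0.19, to a fitted 61.7% of control (adjusted p = 0.0453). The percentage is not exact, since the probe was above background on only 2 of 4 s18790 arrays. With s18789 the difference was -0.41 ± 0.19 (adjusted p = 0.834). The call with s18790 was lost under 12 of 21 alternatives. Among these it was lost without s18790 replicate 2 (-0.51, adjusted p = 0.0511) or replicate 4 (adjusted p = 0.0745), without control replicate 1, 2 or 3 (adjusted p = 0.132, 0.136 and 0.0764) and without any s18789 array (adjusted p = 0.0571 to 0.0622).

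TIGAR, an enzyme that diverts sugar from glycolysis, had similar differences with both siRNAs, 0.28 ± 0.12 (adjusted p = 0.738) and 0.30 ± 0.12 (adjusted p = 0.137). The difference between the siRNAs was 0.02, with a 95% interval of -0.24 to 0.27. TIGAR lay at 7.04 to 7.38 with control, 7.37 to 7.56 with s18789 and 7.21 to 7.64 with s18790. Without s18790 replicate 2 the difference with s18790 was 0.39 and passed (adjusted p = 0.0286).

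TP53INP1, which promotes p53 phosphorylation and autophagy, differed by -0.20 ± 0.12 and -0.34 ± 0.12 (adjusted p = 0.974 and 0.0999). The second difference passed without s18790 replicate 1 (adjusted p = 0.0443). SESN1, a sestrin that restrains mTORC1, differed by -0.04 and -0.07, with 95% intervals of -0.27 to 0.19 and -0.30 to 0.16.

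**Figure D4:**
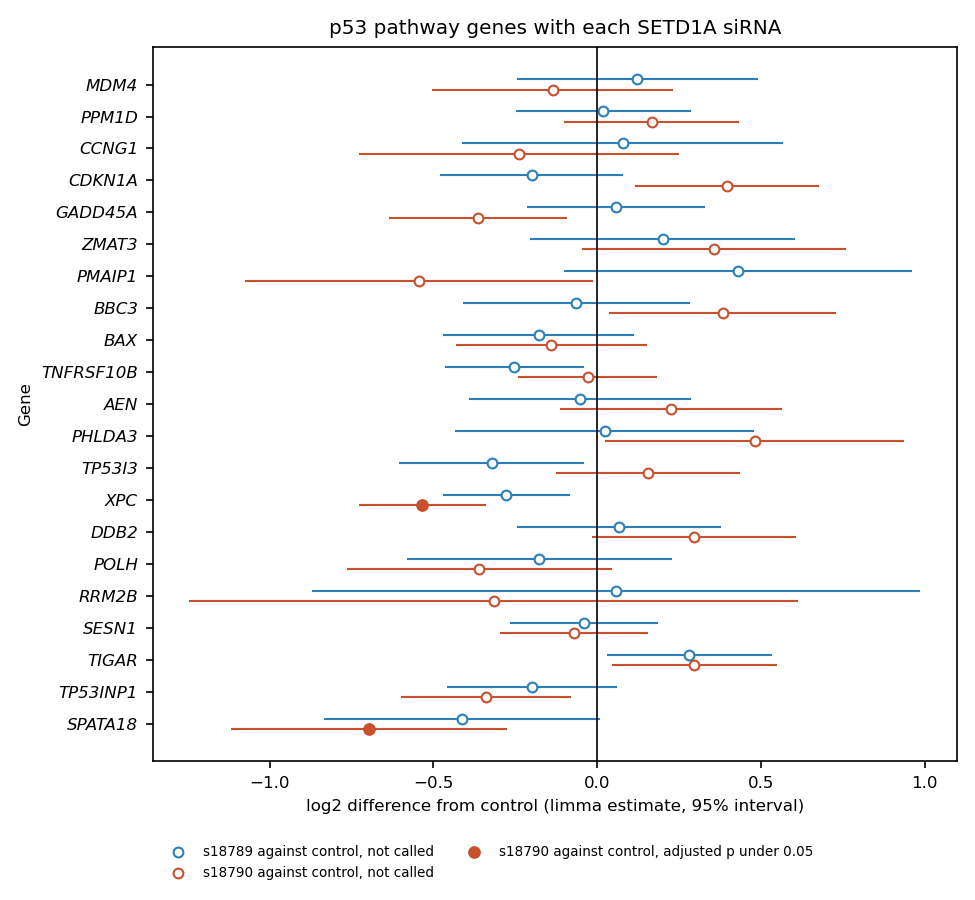
Fitted log2 difference from control of each of the 21 genes with s18789 (blue) and s18790 (red); horizontal lines are 95% intervals and filled points have an adjusted p under 0.05. XPC and SPATA18 with s18790 are the filled points, at -0.53 and -0.70. CDKN1A and PMAIP1 lie on opposite sides of 0 for the 2 siRNAs, with intervals that reach 0 for s18789. Both siRNAs are set against the same control arrays.

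Groups whose arrays do not overlap were counted without a fit, on the brightest probe of each gene. With s18789 these were PMAIP1 (higher) and TNFRSF10B, TP53I3 and XPC (lower), 4 of 21 (19.0%) against 7.72% of all genes (3.15% higher and 4.57% lower). With s18790 they were CDKN1A (higher) and SPATA18 and XPC (lower), 3 of 21 (14.3%) against 15.3% (8.5% higher and 6.77% lower). Between the siRNAs they were BBC3, CDKN1A, TNFRSF10B and TP53I3 (higher with s18790) and GADD45A, PMAIP1 and XPC (lower), 7 of 21 (33.3%) against 16.2% (9.6% higher and 6.64% lower).

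Regulators that act on p53 from upstream were listed separately, 29 genes with 22 measured, such as kinases of the damage response, acetyltransferases and ribosomal proteins. With s18789, 0 of 22 passed (1 at an unadjusted p under 0.05), against 0.102% and 6.35% of all genes. With s18790, 1 was higher and 0 lower, against 5.06% and 4.79% of all genes, and 3 had an unadjusted p under 0.05, against 28.2%. The gene that passed, PPP1R13B, or ASPP1, which steers p53 towards death genes, rose by 0.38 ± 0.10 (9.06 ± 0.11 to 9.44 ± 0.12, SD, n = 4 arrays each; adjusted p = 0.0353). That call was lost under 12 of 22 alternatives, among them the removal of control replicate 1, 2 or 3, of any s18789 array or of s18790 replicate 1 or 4 (adjusted p up to 0.203). The median of the list was 0.05 with s18789 and -0.01 with s18790. Between the siRNAs 0 of 22 passed (2 at an unadjusted p under 0.05), against 5.07% and 24.6% of all genes.

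A further 46 p53 targets outside the 29 genes had 30 measured. With s18789, 0 of 30 passed (2 at an unadjusted p under 0.05), against 0.102% and 6.35% of all genes. The median of the 30 was -0.03. With s18790, 1 was higher and 2 lower, against 9.85% of all genes, 8 had an unadjusted p under 0.05, against 28.2%, and the median was 0.02. STEAP3, a metalloreductase, was higher by 0.61 ± 0.15 (adjusted p = 0.0294). CCDC90B, a mitochondrial coiled-coil protein, was lower by a difference of -0.91 ± 0.18, to 53.3% of control (adjusted p = 0.00884), and passed under all 22 alternatives. IGFBP3, which binds insulin-like growth factors, differed by -0.39 ± 0.10 (adjusted p = 0.0334) and with s18789 by -0.46 ± 0.10, which did not pass (adjusted p = 0.171). The STEAP3 call was lost under 8 of 22 alternatives (control replicate 1, 2 or 3 or s18790 replicate 1 removed among them, adjusted p up to 0.104). The IGFBP3 call was lost under 12, among them the removal of any array except control replicate 2, s18789 replicate 1 and s18790 replicate 2 (adjusted p up to 0.122).

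Between the siRNAs 3 of the 30 passed, against 5.07% of all genes, and 9 had an unadjusted p under 0.05, against 24.6%. STEAP3 (0.68 ± 0.15, adjusted p = 0.0287) and FUCA1, a lysosomal fucosidase (0.50 ± 0.11, adjusted p = 0.0256), were higher with s18790, and CCDC90B was lower (-0.74 ± 0.18, adjusted p = 0.0365). Removing any s18789 array or s18790 replicate 1 ended each of these 3 calls, and the CCDC90B call also ended on dropping s18790 replicate 4 or any control array but replicate 4. The adjusted p reached 0.094, 0.192 and 0.117 over the alternatives for STEAP3, FUCA1 and CCDC90B.

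Cell cycle genes that p53 lowers through p21 and the DREAM repressor complex were all measured, 23 of 23. With s18789, 0 passed and 0 had an unadjusted p under 0.05, against 0.102% and 6.35% of all genes. The median of the 23 was 0.10, with 18 of 23 above 0, against 0.01 and 52.8% over all genes. With s18790, 1 was higher and 0 lower, against 5.06% and 4.79% of all genes, with 6 at an unadjusted p under 0.05, against 28.2%, and a median of -0.04. The gene that passed, CDC25A, a phosphatase that activates cyclin-dependent kinases, rose by 0.41 ± 0.10 (8.32 ± 0.11 to 8.72 ± 0.11, SD, n = 4 arrays each; adjusted p = 0.0267). Removing s18790 replicate 1 or any control array but replicate 4 ended the call, with adjusted p up to 0.234 over the alternatives. Between the siRNAs 0 of 23 passed (4 at an unadjusted p under 0.05), against 5.07% and 24.6% of all genes. The median of the 23 was -0.01 there.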

How the data were processed

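Total RNA of 12 SH-SY5Y samples was read on single-colour bead arrays. The deposited intensity of each probe is on a linear scale and not normalized between arrays; GenomeStudio is the tool named per the submitters' processing notes. A detection p-value was deposited beside each intensity, per the file headers. A second deposited table gives log2 values by a transform not given in the sources used here; it served as an alternative.

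With limma 3.58.1 in R 4.3.3, detection p-values guided the background correction (normexp), with 16 added as offset. Then log2 was taken and the arrays were quantile normalized. The 15922 probes with a detection p under 0.01 on at least 4 of 12 arrays were fitted with a mean per group (9 residual degrees of freedom), and p-values were adjusted by Benjamini-Hochberg over all of them. Symbols came from the platform annotation (30113 of 47321 probes with 1 symbol, 8 with several, 17200 unnamed). No coordinates other than the promoters' are given. Members, lists and tests were chosen with earlier results of these data known. Every measured member is named, and those whose brightest probe passed the test are given with each array's value. From each further list up to 6 called genes per comparison are named. Alternatives changed the background correction, offset, scaling, probe filter, probe choice, arrays in the fit, array weights and source of values. The number of arrays limits precision. The fit was tested on simulated log2 values with independent noise per probe and no outlying arrays. The background correction, normalization and probe filter were not tested in that way.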

Additional observations from a re-analysis of the deposited data

Results flagged for a closer look

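Single arrays stood apart from the other 3 of their group for 3 genes by Dixon's test, out of 66 groups tested, where chance alone flags about 1 in 20 groups. SESN1 was at 7.12 on s18789 replicate 4, with the other s18789 arrays at 7.32 to 7.36. DDB2 was at 7.22 on s18790 replicate 2, with the others at 6.73 to 6.79. ZMAT3 was at 11.5 on s18790 replicate 2, with the others at 12.1 to 12.3.

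The effects of the 2 siRNAs differed from each other, by the direct comparison of s18790 with s18789, for 2 of the 21 genes and 3 further p53 targets, where 5.07% of all genes passed. The CDKN1A call was lost under 6 and the PMAIP1 call under 11 of 22 alternatives. The log2 differences were -0.97 for PMAIP1 (adjusted p = 0.0454), 0.60 for CDKN1A (adjusted p = 0.0245), -0.74 for CCDC90B (adjusted p = 0.0365), 0.68 for STEAP3 (adjusted p = 0.0287) and 0.50 for FUCA1 (adjusted p = 0.0256).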

How the results depend on the processing

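Of the values of the 21 genes in 3 comparisons, 59 were not called and 53 of these were called under none of the alternatives, while 18 had the opposite sign under at least 1. Of the 4 called values, that of XPC was called under every alternative. With s18789, 0 genes were called by their brightest probe under any of them, while the ZMAT3 probe ILMN_1865764 was called when s18790 replicate 2 and control replicate 4 were dropped. Of all probes, 0.0188% to 2.42% were called with s18789 over the alternatives. With s18790 against control, 2 genes were called by their brightest probe. Of the 31 probes of the 21 genes 4 were called, among them ILMN_1654262 and ILMN_1865764 of ZMAT3. The count of genes was 1 without the filter on dim probes, with detection on all 12 arrays, or in a fit of those groups only. It was 6 with array weights, 4 when s18790 replicate 2 and control replicate 4 were both dropped, and 1 to 3 leaving out single arrays. Of all probes, 8.32% were called in the main fit, 2.44% without the filter and 10.4% with detection on all 12 arrays. That share was 2.7% in a fit of those groups only, 19.6% with array weights and 17.6% when both were dropped. Leaving out single arrays it was 3.66% to 11.3%. Between the siRNAs the count of 2 became 1 without the filter, 0 in a fit of those groups only, 4 with array weights, 4 when s18790 replicate 2 and control replicate 4 were both dropped, and 0 to 3 leaving out single arrays. The share of all probes called was 4.2% in the main fit, 1.27% without the filter and 1.26% in a fit of those groups only. It was 9.9% with array weights, 10.3% when both were dropped and 1.29% to 6.8% leaving out single arrays. The median with s18790 (-0.07) was -0.20 with median scaling, -0.035 without the filter, 0.16 with detection on all 12 arrays, -0.021 with array weights, 0.0053 when both were dropped and -0.11 to 0.021 leaving out single arrays. Between the siRNAs the median (0.02) was -0.19 with median scaling and 0.15 with detection on all 12 arrays. Median scaling itself moved the median of all probes to 0.08, -0.08 and -0.14 in the 3 comparisons. The fall of SETD1A with s18790 (-0.63) missed the threshold without the filter (adjusted p = 0.0502) and in a fit of those groups only (adjusted p = 0.0999), and was -0.77 to -0.51 leaving out single arrays, and the removal of control replicate 1 or 2 or of s18790 replicate 1 or 4 ended the call. With both dropped SETD1A differed between the siRNAs (-0.33, adjusted p = 0.0407). The cause of these changes was not tested.

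The arrays showed no steady pairing by replicate number. Deviations of same-numbered arrays from their group means correlated at -0.583 to 0.575, over 0.1 in 6 of 12 pairs. Of 12 arrays, 3 were nearest to their own number. The arrays of replicate 3 correlated positively in all 3 comparisons (0.371, 0.575 and 0.463). Deviations from a mean of 4 arrays are tied to each other, so this check cannot exclude pairing. With the replicate number as a block, 1 gene was called with s18790 against control (5.24% of all probes) and 1 between the siRNAs (1.86%). SETD1A with s18790 stayed at -0.63 in that fit (adjusted p = 0.0510).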
